A study of Mus musculus with 2 samples.

Results

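CA1 pyramidal neurons of aged mouse hippocampus were picked out of a single-cell RNA-seq data set by the transcripts they carried. A cell was taken when it held at least 2000 UMIs (unique molecular identifiers, one for each counted transcript molecule) and at least 4 UMIs of Fibcd1, Spink8, Lefty1 and Gpr161 together. These markers also had to make up at least 2 of every 10000 UMIs, with at least 2 UMIs of Fibcd1 or Spink8. The cell had to hold more Slc17a7 than Gad1 plus Gad2, and more of the 4 markers than of C1ql2, Dsp, Tdo2 and Lct (dentate granule genes) and than of Mog, Mag and Aqp4 (glial genes). By this rule, 1823 of the 31097 deposited cells were CA1 cells, 987 of them from control mice and 836 from mice fed tomatidine. They made up 7.06% of 13974 control cells and 6.24% of 13406 tomatidine cells with at least 2000 UMIs.

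The mice were C57BL/6 of both sexes, with no engineered allele in either group. They were 21 months old when treatment began and ate either standard chow (control) or the same diet with 0.05% tomatidine, a steroidal alkaloid made by tomato plants, for 3 months. Hippocampi of 4 mice were pooled into 1 library per diet, so there was no replicate, and a difference between diets cannot be told apart from one between pools, dissections or library preparations. No test between the diets was possible. Ratios are given as log2 of the tomatidine level over the control level, both in CPM (UMIs of a gene per 1000000 UMIs of the same cells), and every 95% interval covers counting error only. The deposited tables held 279525565 UMIs in the control and 259059908 in the tomatidine library over all cells. The assay counted probes ligated on fixed RNA, so a level is that of the probes of a gene.

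CA1 pyramidal neurons are the glutamatergic output cells of the hippocampal circuit. They receive the Schaffer collaterals of CA3 neurons, themselves driven by dentate granule cells, and project to the subiculum and the cortex. The synapse from CA3 onto CA1 is the classical site of NMDA receptor dependent long-term potentiation, and strong activity in these neurons induces immediate early genes such as Fos, Egr1 and Arc.

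The markers that the rule used were at high levels in these cells, as they had to be. In rule cells, Fibcd1 (an acetyl-binding membrane receptor, chr2:31813290-31846005 on the minus strand in GRCm38) stood at 430 CPM among control cells and 365 CPM among tomatidine cells. Spink8 (a Kazal-type protease inhibitor, chr9:109812280-109826633, plus strand) stood at 311 and 240 CPM. Lefty1 (a secreted Nodal antagonist, chr1:180935022-180938400, plus strand) reached 70.6 and 48.9 CPM, and Gpr161 (an orphan receptor of the primary cilium, chr1:165295789-165326745, plus strand) 156 and 168 CPM. Lefty1 was the least often seen of the 4, in 63.1% of control and 54.8% of tomatidine cells, against 86.5% and 89.7% for Fibcd1. Slc17a7, the vesicular glutamate transporter of these neurons, was counted in 100% of the cells in both libraries. This too was fixed by the rule, which asked for more Slc17a7 than Gad1 plus Gad2.

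The label was checked with CA1 markers that the rule did not use, among them Wfs1, a membrane protein of the endoplasmic reticulum, Pou3f1, a transcription factor, and Mpped1, a metallophosphoesterase. A sum of at least 4 UMIs of these genes, at 2 per 10000, was held by 80.1% of the control and 84.4% of the tomatidine rule cells. Support was weaker at the edge of the rule. At a marker sum of 4 UMIs, the lowest that the rule admits, 31.1% of 45 control and 48.5% of 33 tomatidine cells had these outside markers. Just outside, at a sum of 3 UMIs, 36.7% of 30 control and 32.4% of 34 tomatidine cells had them. The median rule cell held 31 marker UMIs in the control and 21 in the tomatidine library, far from the edge.

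Some of the rule cells carried more of another cell class than of the outside CA1 markers. Each rule cell was therefore set against 10 other marker lists, and was said to pass one when it held at least 4 UMIs of the list, at 2 per 10000, and more of it than of the outside CA1 markers. CA2 markers (Amigo2, Rgs14, Map3k15 and Necab2) outweighed them in 17.7% of control and 12.2% of tomatidine rule cells. In these cells Spink8 was at 457 and 402 CPM, whereas Fibcd1 was at 106 and 69.3 CPM. Necab2, a calcium-binding protein of CA2 neurons, was at 903 and 713 CPM, but it helped to choose these cells, so a high level follows from the choice. The astrocyte list outweighed the outside markers in 9.32% and 10.6%, and the oligodendrocyte list in 5.37% and 3.47%. The list of subiculum and cortex outweighed them in 3.44% and 4.90%. The interneuron list did so in 1.32% and 3.23%, higher in the tomatidine library by 1.91 percentage points (0.551 to 3.44).

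A further 4.76% of control but 1.32% of tomatidine rule cells held more Tac2, Gng8, Gpr151 and Chrnb4 than outside CA1 markers, a list put together after the data had been seen. The share was lower in the tomatidine library by 3.45 percentage points (1.90 to 5.07). In these cells Tac2, which encodes neurokinin B, stood at 2028 and 2725 CPM, a high level that follows from their choice by this gene. Fibcd1 stood at 513 and 557 CPM in these cells, and Spink8 at 22.7 and 4.22 CPM. Of the rule's markers they thus held mainly Fibcd1. As background, the 4 genes are known from the medial habenula, but no marker list fixed for this work covers that region, and the cells are called here by their genes alone.

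**Figure D1:**
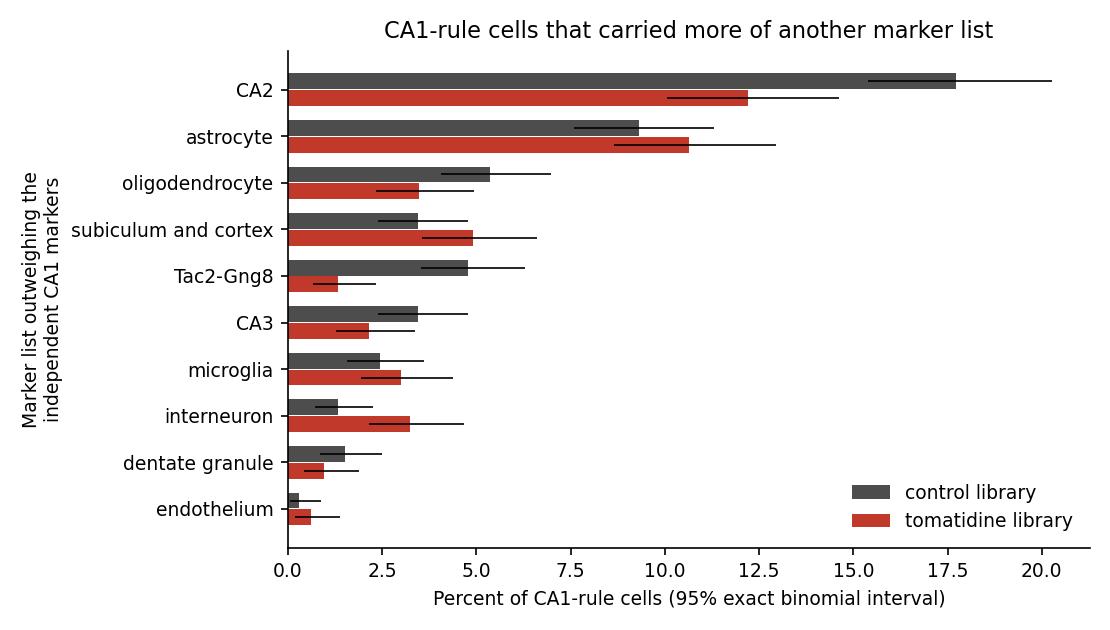
Percent of CA1-rule cells (horizontal axis, 0 to 20%) in which another marker list outweighed the outside CA1 markers, for 10 lists (vertical axis), with control in grey, tomatidine in red and 95% exact binomial intervals as lines. The CA2 list leads in both libraries at 17.7% and 12.2%, and the Tac2-Gng8 list differs most in proportion, at 4.76% and 1.32%.

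Rule cells that held the outside markers and passed none of these lists are called supported cells, a set defined after the data had been seen. There were 650 of them (65.9% of rule cells) in the control and 574 (68.7%) in the tomatidine library. Since the outside markers helped to choose these cells, their levels are given for all rule cells. There Wfs1 was at 427 and 364 CPM, against 49.2 and 52.3 CPM in CA3 neurons and 60.7 and 95.5 CPM in dentate granule cells, which were picked by their own markers (Iyd, Coch, Cdh24 and Bok, and C1ql2, Dsp, Tdo2 and Lct). Mpped1 was at 305 and 298 CPM in rule cells and between 26.9 and 38.7 CPM in the other classes. Pou3f1 was at 52.3 and 48.5 CPM against at most 3.60 CPM. These genes did not all set CA1 apart from the subiculum and cortex. In the 34 control and 41 tomatidine rule cells past that list, Mpped1 was at 421 and 429 CPM and Pou3f1 at 82.5 and 99.2 CPM, while Wfs1 was at 34.6 and 54.1 CPM and Fibcd1 at 32.9 and 55.9 CPM.

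**Figure D2:**
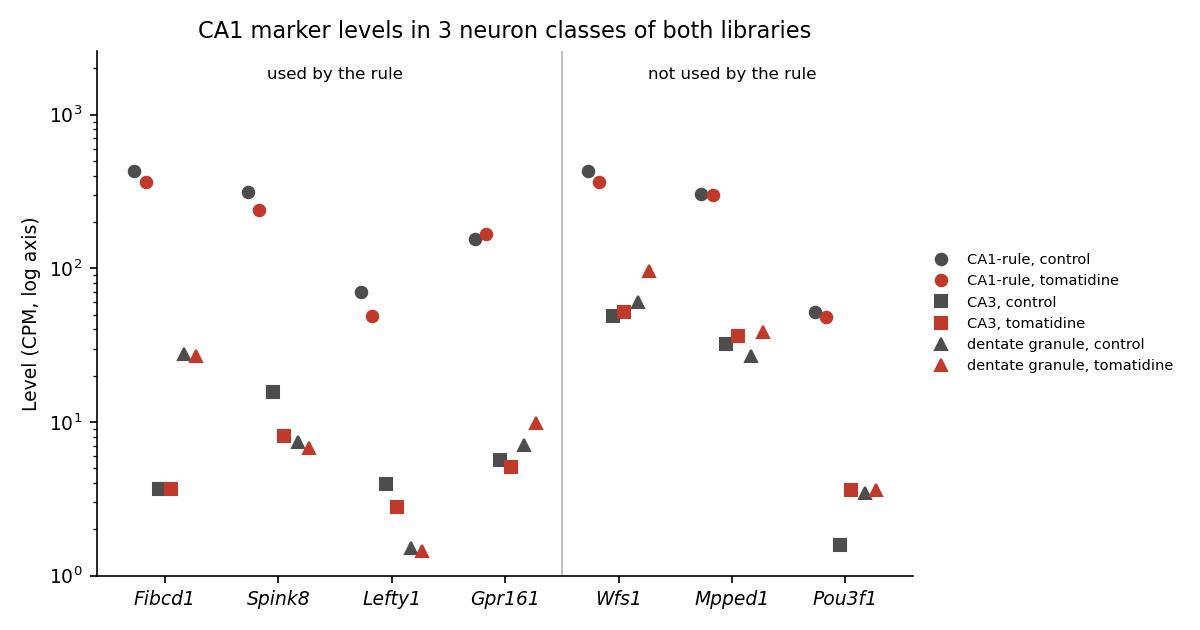
Levels in CPM (vertical log axis) of the 4 markers used by the rule (left) and 3 not used by it (right) in CA1-rule cells (circles), CA3 cells (squares) and dentate granule cells (triangles), in the control (grey) and tomatidine (red) library. The left genes are high in rule cells by the choice of the cells, whereas Wfs1, not used, stands at 427 and 364 CPM in rule cells and at most at 95.5 CPM in the others.

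Cells of the 2 libraries shared 292 barcodes, of which 35 belonged to a rule cell in at least 1 library and 1 to a rule cell in both. The 10 genes that stood highest in rule cells over the larger of the CA3 and dentate levels included the markers Spink8, Lefty1, Gpr161 and Fibcd1 and the outside marker Pou3f1, with log2 ratios of 3.75 to 4.88 in either library. Of the others, the orphan receptor Gpr101 was higher by 4.25 in the control and 4.29 in the tomatidine library. Chrna5, a nicotinic acetylcholine receptor subunit, was higher by 4.01 and 4.34, and Stac, an adaptor of voltage-gated calcium channels, by 4.14 and 3.94. Nts (neurotensin) and Tac2 also reached the first 10, at 3.82 and 3.90 and at 3.68 and 4.56. In supported cells the Nts ratios were 1.80 and 1.83 and those of Tac2 −2.21 and 0.24. Both genes belong to lists by which supported cells had been chosen, so lower ratios there follow from that choice.

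Rule cells of the control library were more deeply counted, with a median of 32410 UMIs per cell (2656 to 398587) against 21803.5 (2859 to 592275) in the tomatidine library. The median cell held 7196 and 6440 genes, and 65.5% and 59.0% of the cells held over 6000 genes. Mitochondrially encoded transcripts took a median of 0.278% and 0.288% of UMIs. The rule cells together held 46705573 UMIs in the control and 33424146 in the tomatidine library.

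Supported CA1 cells were divided into 2 ranges by Snhg11, a small nucleolar RNA host gene (chr2:158375638-158386145, plus strand, listed as protein-coding in the annotation used), a gene picked after its values were seen. Divided at 10 Snhg11 UMIs per 10000, 24.2% of control (157 of 650, 20.9% to 27.6%) and 50.7% of tomatidine cells (291 of 574, 46.5% to 54.9%) were Snhg11-high, a difference of 26.5 percentage points (21.2 to 31.7). The division is a range and not a cell type, and 30 control and 40 tomatidine cells lay between 8 and 12 per 10000. Snhg11-high cells had fewer UMIs, with medians of 17356 and 17015 against 46591 and 40463 in Snhg11-low cells. Over the rule cells Snhg11 was at 486 and 828 CPM, a log2 ratio of 0.77. It was also higher in the tomatidine library in CA3 neurons, at 447 and 655 CPM, and in dentate granule cells, at 178 and 260 CPM, each a log2 ratio of 0.55.

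**Figure D3:**
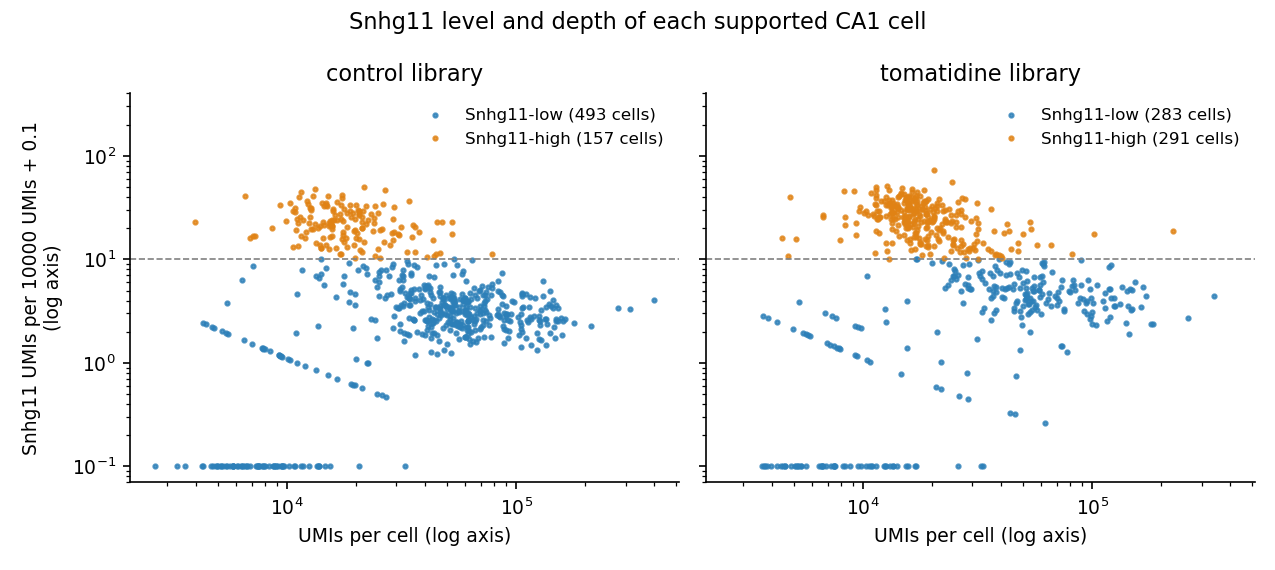
Each point is a supported CA1 cell, with its UMIs on the horizontal log axis and its Snhg11 UMIs per 10000, plus 0.1, on the vertical log axis, for the control (left) and tomatidine (right) library. The dashed line at 10 per 10000 separates Snhg11-low (blue, 493 and 283 cells) from Snhg11-high cells (orange, 157 and 291 cells), and the lowest row holds cells with no Snhg11 UMI.

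The 2 ranges differed in more than Snhg11. The following genes were likewise chosen after their values were seen, by the weaker of their ratios in the 2 libraries. Their like direction in both libraries follows from that choice. In Snhg11-high over Snhg11-low cells, Cd24a, a surface glycoprotein, was higher by 2.98 in the control and 2.89 in the tomatidine library (log2), and Traip, a ubiquitin ligase of DNA replication, by 2.42 and 2.64. Snap25, which drives synaptic vesicle fusion, was lower, at −1.14 and −1.21, as were the calmodulin gene Calm2, at −1.46 and −1.13, and Tpi1, a glycolytic enzyme, at −1.32 and −1.39. By list, 43 of 43 nuclear-encoded respiratory chain genes were lower in the Snhg11-high cells of both libraries, with medians of −0.83 and −0.78. Of all 10347 genes compared, 3441 were lower in both libraries and 5604 higher in both. Subunits of AMPA, NMDA and kainate receptors had medians of 0.66 and 0.69, beside 0.19 and 0.16 over the 10347 genes compared. Markers of some other classes differed too, with medians of 0.71 and 0.80 for 5 CA3 and 0.62 and 0.44 for 5 interneuron markers. The medians were 0.46 and 0.18 for 8 oligodendrocyte and 0.83 and 0.48 for 3 choroid plexus markers. The 12 outside CA1 markers were at −0.42 and −0.34. Not all lists were higher: the 8 astrocyte markers were at 0.03 and −0.18 and the 4 microglial markers at −0.04 and 0.03. The 9 markers of subiculum and cortex were at 0.27 and −0.48. The 6 ventral CA1 markers were at −0.19 and −0.94 and the 3 CA2 markers at −0.51 and −0.22. The part of these markers in the difference between the ranges was not tested. The 2 libraries thus held different mixtures of these ranges, and ratios between diets are therefore also given within each range.

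The share of CA1-rule cells was lower in the tomatidine library by 0.827 percentage points (0.237 to 1.42), that is 6.24% (5.83% to 6.66%) against 7.06% (6.64% to 7.50%) of cells with at least 2000 UMIs. For supported cells the shares were 4.28% and 4.65%, and the interval of the difference, −0.859 to 0.120, included 0. Part of the study's cell filters were also applied, keeping cells with over 250 and at most 6000 genes, log10 genes over log10 UMIs above 0.8 and under 10% mitochondrial UMIs. Among these cells the difference was 0.208 percentage points in the other direction, and its interval, −0.310 to 0.729, included 0. CA3 neurons made up 1.84% and 2.10%, and dentate granule cells 17.6% and 21.5%. Each share depends on how many cells of every other class were recovered from the tissue.

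Among 12108 genes with at least 100 UMIs in rule cells of both libraries together, 641 (5.29%) were higher in the tomatidine library by at least 0.5 on the log2 scale and 127 (1.05%) were lower by as much, with a median of 0.05. In supported cells 794 of 11264 genes (7.05%) were higher and 57 (0.506%) lower. Within the Snhg11-low range 4.55% of genes were higher and 1.02% lower, and within the Snhg11-high range 1.35% and 0.731%. The same count gave 4.74% and 2.26% in CA3 neurons and 1.79% and 2.01% in dentate granule cells. These are counts of genes past this fold of 0.5 and not of genes past a test.

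The 10 lowest ratios among genes with at least 500 UMIs were those of Gng8, Ttr, Gpr151, Kcng4, Hhip, Chrnb4, Npr1, Prkcq, Ano1 and Slc5a7. Gng8, a G protein subunit, had 1271 control and 130 tomatidine UMIs, a log2 ratio of −2.81. Gng8, Gpr151 and Chrnb4 belong to the Tac2-Gng8 list, so that their UMIs lay in the cells that passed it follows from how those cells were chosen. Of the other genes, Kcng4, Hhip, Npr1, Prkcq, Ano1 and Slc5a7 had between 82.1% and 98.2% of their control UMIs in the same few cells. Slc5a7, the choline transporter of cholinergic neurons, had the highest share.

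Ttr, the remaining gene, was counted in most control cells. Its product, transthyretin, is the thyroid hormone carrier that the choroid plexus secretes. It was counted in 93.7% of control and 31.7% of tomatidine rule cells, at 266 and 44.2 CPM, a log2 ratio of −2.59 (−2.67 to −2.51). Its UMIs were nonetheless unevenly held, since 1 control cell had 2872 of the 12434 (23.1%) and 4 control cells together had at least as many as all the rest. The ratio was −2.74 in supported cells, −3.04 in the Snhg11-high cells among them, and −4.06 in CA3 neurons, where Ttr was at 186 and 11.2 CPM. In oligodendrocytes, glial cells that make myelin, it was at 2389 and 57.1 CPM, so the CA1 cells shared this difference with other classes.

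At the other end stood, among others, Vip, Dlk1, Plcb4, Galnt14, Zdhhc22, Dcn, Sema4g, Gad2 and Cux2, with log2 ratios of 0.98 to 3.85. Vip, an interneuron peptide, had 102 and 1049 UMIs, of which a single tomatidine cell held 410, or 39.1%. Gad2, which makes GABA, had a log2 ratio of 0.99 in rule cells. It was at −0.09 in supported cells, but is itself 1 of the genes by which interneuron-rich cells had been removed from them. Dcn (decorin, a matrix proteoglycan and a marker of ventral CA1) had 1637 and 2385 UMIs, at 35.0 and 71.4 CPM, a log2 ratio of 1.03 (0.93 to 1.12). It was counted in 12.3% and 15.8% of the cells. Of these, 11 control and 13 tomatidine cells held at least as many Dcn UMIs as all the rest. In supported cells the Dcn ratio was 1.10, and in CA3 neurons −0.51.

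Immediate early genes, which neurons transcribe within minutes of activity, were lower in the tomatidine library over the rule cells. Of 24 listed genes, 18 had the lower level in the tomatidine library and 6 of these were past the fold, with none past it upward. The list's median was −0.22 (−0.29 to −0.17, the medians of the members' interval bounds), beside 0.05 over all genes tested, of which 1.05% were lower past the fold. The difference was larger in Snhg11-low cells, at −0.38 (−0.54 to −0.26), and had the other sign in Snhg11-high cells, at 0.16 (−0.02 to 0.33), or 0.066 with equal weight per cell. No test compared the 2 ranges. Over the 341 control and 343 tomatidine rule cells that met the filters on gene number and mitochondrial UMIs, which leave out cells of over 6000 genes, the median was 0.07. With every cell given equal weight it was −0.11. CA3 neurons had a median of 0.13 and dentate granule cells of 0.01.

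The 250 bases before the start of 3 of these genes are shown because activity reaches such promoters through CREB, which binds TGACG, written CGTCA on the other strand. Capitals mark these letters in either strand. The sequences and transcript starts are those of a RefSeq table in GRCm38.p6, written 5′ to 3′ in the direction of the gene.
Fos (chr12:85473640-85473889, plus strand): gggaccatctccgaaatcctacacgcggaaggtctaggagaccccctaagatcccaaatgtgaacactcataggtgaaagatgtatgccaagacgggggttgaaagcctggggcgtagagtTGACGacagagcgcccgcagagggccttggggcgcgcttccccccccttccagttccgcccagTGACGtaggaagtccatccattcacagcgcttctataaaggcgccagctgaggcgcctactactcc
Junb (chr8:84978749-84978998, minus strand): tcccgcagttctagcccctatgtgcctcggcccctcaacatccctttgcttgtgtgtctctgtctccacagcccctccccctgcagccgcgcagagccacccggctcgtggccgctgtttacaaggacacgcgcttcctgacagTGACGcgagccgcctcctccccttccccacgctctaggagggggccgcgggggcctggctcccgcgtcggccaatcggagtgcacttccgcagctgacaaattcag
Nr4a1 (chr15:101266596-101266845, plus strand): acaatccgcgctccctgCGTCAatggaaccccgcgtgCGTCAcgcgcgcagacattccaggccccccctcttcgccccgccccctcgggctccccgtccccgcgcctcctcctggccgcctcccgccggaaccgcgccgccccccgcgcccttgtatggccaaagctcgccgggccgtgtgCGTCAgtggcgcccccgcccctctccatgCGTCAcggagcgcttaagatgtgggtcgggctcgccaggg

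The Fos window holds the letters at 2 places, the Junb window at 1 and the Nr4a1 window at 4. They occur in 17.8% of all 32851 windows of the same length, in 19.8% of 27025 genes, and in 13 of the 18 listed immediate early genes that have an entry (72.2%). The full palindrome TGACGTCA, which contains these letters, is in 1.55% of the windows and in 1 of the 18 genes, Dusp1. A match is a description of the letters and not of a bound site.

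Fos, a subunit of the AP-1 transcription factor (chr12:85473890-85477273, plus strand), had 2008 control and 904 tomatidine UMIs in rule cells, at 43.0 and 27.0 CPM. The log2 ratio was −0.67 (−0.78 to −0.55), and Fos was counted in 32.8% and 27.6% of the cells. In Snhg11-low cells it was at 52.0 and 26.9 CPM, a ratio of −0.95 (−1.12 to −0.79). In Snhg11-high cells it was at 25.2 and 39.2 CPM, a ratio of 0.64 (0.26 to 1.02), so the order of the pooled levels turned between the ranges. Without thinning, the share of Snhg11-high cells with Fos did not turn, at 22.3% and 21.6%. With each cell thinned to the same number of UMIs it did, at 8.69% and 10.5%, against 14.7% and 11.2% in Snhg11-low cells. The dentate ratio was 0.01.

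Arc, a cytoskeletal protein that drives AMPA receptor uptake (chr15:74669083-74672570, minus strand), had 11675 and 5823 UMIs, at 250 and 174 CPM, a log2 ratio of −0.52 (−0.57 to −0.48). In Snhg11-low cells the levels were 288 and 148 CPM and the ratio −0.96 (−1.03 to −0.89). In Snhg11-high cells they were 292 and 315 CPM, a ratio of 0.11 (−0.01 to 0.22), although the median cell of this range held 1.92 and 1.79 Arc UMIs per 10000. By cell, Arc ranged from 0 to 20.3 per 10000 in the control library, with a median of 1.73. In the tomatidine library it ranged from 0 to 26.8, with a median of 1.31. The cells of the 2 libraries overlapped over nearly the whole range.

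Egr1, a zinc finger transcription factor, was the most abundant of the group described here, with 25048 and 12567 UMIs at 536 and 376 CPM, a ratio of −0.51 (−0.54 to −0.48). The median cell held 3.30 and 2.34 Egr1 UMIs per 10000, and the highest 44.8 and 40.5. Within the Snhg11-low range the medians were 5.49 and 3.45, and within the Snhg11-high range 2.62 and 2.15. The CPM ratio was −0.60 in the first range and 0.18 (0.08 to 0.28) in the second, although the median cell of the second range held less Egr1 in the tomatidine library. In CA3 neurons the ratio was 0.22.

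Junb, another AP-1 subunit (chr8:84974484-84978718, minus strand), had a ratio of −0.61 (−0.67 to −0.55), from 151 and 99.4 CPM, with −0.77 in Snhg11-low and 0.10 (−0.08 to 0.28) in Snhg11-high cells. Egr2 was the lowest of the list, with 371 and 127 UMIs and a ratio of −1.06 (−1.37 to −0.77). In Snhg11-low cells it had 310 and 42 UMIs, a ratio of −1.99 (−2.49 to −1.52). Dusp6, a phosphatase that acts on ERK, was at 265 and 186 CPM, a ratio of −0.52 (−0.56 to −0.47). Members at the upper end were Fosl2, at 42.6 and 56.4 CPM (0.40), Jun, at 65.8 and 82.1 CPM (0.32), and Npas4, a neuronal activity-dependent transcription factor, at 31.7 and 35.8 CPM (0.17).

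**Figure D4:**
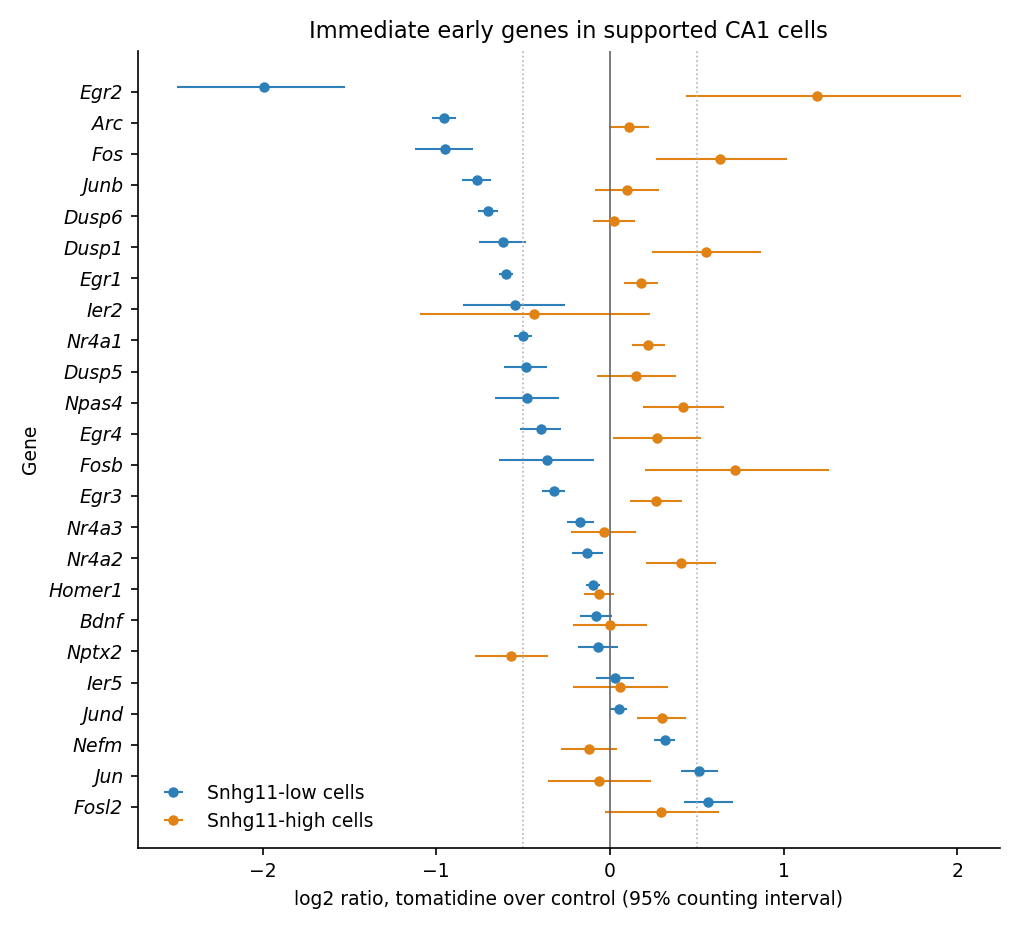
Log2 ratio of tomatidine over control (horizontal axis, with 95% counting intervals) for the 24 immediate early genes (vertical axis) in Snhg11-low (blue) and Snhg11-high (orange) supported CA1 cells. Arc, Fos and Egr2 lie at −0.96, −0.95 and −1.99 in the blue cells and at 0.11, 0.64 and 1.19 in the orange cells. The Egr2 value of the orange cells rests on few UMIs. Of the 24 genes, 22 had at least 100 UMIs in the orange cells. Dotted lines mark the fold of 0.5.

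Markers of ventral CA1, the end of the field toward the amygdala, differed in the other direction. Of 6 ventral CA1 markers, 6 were higher in the tomatidine library and 2 were past the fold (background 5.29%), with a median of 0.41, or 0.56 in Snhg11-low and 0.08 in Snhg11-high cells. Besides Dcn they were Col5a1, a fibrillar collagen (0.60), Htr2c, a serotonin receptor, at 28.9 and 39.6 CPM (0.46), Gpc3, a glypican (0.37), Nr2f2, a nuclear receptor (0.34), and the peptide gene Grp (0.02). In Snhg11-low cells with at least 5 Wfs1 UMIs per 10000 and more Wfs1 than ventral markers, the immediate early genes had a median of −0.15 (−0.29 to 0.08), or −0.0078 with equal weight per cell. Of these genes 14 were lower, 4 of them past the fold, and 10 higher, 2 of them past the fold, among 9837 genes of which 1.64% were higher and 1.23% lower by as much. The set held 263 control and 145 tomatidine cells. What part the position of the cells along CA1 had in the immediate early gene ratios was not tested.

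CA1 markers outside the rule were mostly lower, with 9 of 12 below 0, a median of −0.17 and none past the fold. The median was −0.18 in Snhg11-low cells, 0.03 in Snhg11-high cells, where 7 of 12 were higher, and −0.033 in rule cells with equal weight per cell. Some of these markers had helped to choose the cells of both ranges. Hpca (hippocalcin, a calcium sensor) was at 3915 and 3049 CPM (−0.36), Neurod6, a neuronal transcription factor, at 592 and 438 CPM (−0.44), and Itpka, an inositol trisphosphate kinase of dendritic spines, at 947 and 777 CPM (−0.28). Ccn3, a secreted matricellular protein, went the other way, at 557 and 750 CPM (0.43), with 0.60 in Snhg11-low and −0.17 in Snhg11-high cells. Of the markers of the rule, given as description, Lefty1 had a ratio of −0.53 (−0.61 to −0.44) and Spink8 of −0.38 (−0.42 to −0.34). The Lefty1 ratio was −0.62 in Snhg11-low and −0.05 in Snhg11-high cells.

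Markers of subiculum and cortex were higher in the tomatidine library in 10 of 10 cases, 5 of them past the fold (5.29% of all genes were). The median was 0.49, beside 0.05 over all genes, and 0.28 with equal weight per cell. They were Cux2 (0.98), the transcription factors Foxp2 (0.94) and Tshz2 (0.55), Rspo2, a Wnt agonist (0.54), and Fn1 or fibronectin (0.52), with Fezf2, a transcription factor of deep cortical layers, at 111 and 146 CPM (0.39). In supported cells, for whose choice Fn1, Nts, Rorb and Cux2 had been used, 6 of 10 were past the fold, beside 7.05% of all genes there. The list's median was 0.63 in Snhg11-low, 0.18 in Snhg11-high and 0.36 in dentate granule cells. The 6 CA2 markers were lower in rule cells, with a median of −0.30. Supported cells, from which those rich in CA2 markers had been removed, had a median of 0.15 over the 5 measured there.

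Glutamate receptor genes were mostly higher in the tomatidine library. Of 15 AMPA, NMDA and kainate receptor subunits, 14 were higher and 3 past the fold (5.29% of all genes were), with a median of 0.22 (0.11 to 0.32). The 3 were Grin2d (94 and 207 UMIs, 1.62) and the kainate subunits Grik1 (0.80) and Grik3 (0.76), whereas Gria2, which makes AMPA receptors impermeable to calcium and had 69763 and 54509 UMIs, was at 0.13 and Grin2b at −0.03. In supported cells Grin2d stood at 1.80 and Grik3 at 1.01, but Grik1 at 0.06. The 7 metabotropic receptors had a median of 0.32, led by Grm8 (0.59) and Grm7 (172 and 224 CPM, 0.38). Within the Snhg11-high range these medians were 0.02 and −0.05, and within the Snhg11-low range they were 0.14 (−0.05 to 0.21) and 0.21 (0.10 to 0.46). There 7 of 13 measured ionotropic subunits were higher and 6 lower. What part the mixture of ranges had in these ratios was not tested.

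GABA receptor subunits showed no common direction, with 8 of 14 higher and a median of 0.05. Gabrg1 (0.83) and Gabrg3 (0.51) were past the fold, beside 5.29% of all genes, but Gabrg3 was at 0.46 in supported cells. Gabra5, the subunit of extrasynaptic receptors on CA1 dendrites, was at 483 and 389 CPM (−0.31). Postsynaptic density genes were lower in 19 of 24 cases, by small amounts, with a median of −0.06 and none past the fold. They included the calcineurin subunit Ppp3ca at 2468 and 2014 CPM (−0.29), Cnih2, an AMPA receptor auxiliary protein, at 260 and 222 CPM (−0.23), and the calmodulin-binding Nrgn (−0.22), with the scaffold Shank1 at 0.24. The 18 presynaptic release genes had a median of 0.02.

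Of 22 genes of calcium channels, stores and afterhyperpolarization, none was past the fold. The median was 0.10, but −0.017 in Snhg11-low and −0.026 in Snhg11-high cells. Cacna1g, a T-type channel, was at 74.1 and 99.7 CPM (0.43), the store channels Itpr2 and Ryr1 were at 0.44 and 0.40, and Calm2 was at −0.25. The median of 27 sodium, potassium and HCN channel genes was 0.01. Kcnab1, a potassium channel subunit, was at 348 and 254 CPM (−0.45), and Kcnc1 and Scn1a, both prominent in fast-spiking interneurons, were at 0.36 and 0.34. Among 17 neuropeptide genes, Tac2 (−1.34), Tac1 (−1.23), Pdyn (−0.69) and Npy (0.94) were past the fold, that is 1 higher and 3 lower beside 5.29% and 1.05% of all genes. In supported cells none was lower past the fold, beside 0.506% of all genes there. Tac2 (0.22), Tac1 (−0.04) and Pdyn (0.13) had fewer than 100 UMIs in supported cells. Npy was at 0.35.

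p21 and p16, the cell cycle inhibitors that the study followed as marks of senescence, were sparse in CA1 cells. Cdkn1a (p21) was counted in 80 of 987 control cells (8.11%, 6.48% to 9.99%) and 62 of 836 tomatidine cells (7.42%, 5.73% to 9.41%), a difference of −0.689 percentage points (−3.14 to 1.82). It had 131 and 119 UMIs, at 2.80 and 3.56 CPM, a log2 ratio of 0.34 (−0.03 to 0.71). With each cell thinned to 5000 UMIs, which left out 40 and 28 cells, the shares were 1.44% and 1.64%. Over all rule cells a difference between diets was thus not detectable at this depth, and the unthinned and thinned shares did not have the same order. In Snhg11-low cells p21 was at 3.13 and 4.81 CPM, a log2 ratio of 0.62 (0.14 to 1.10), while 9.53% and 9.54% of the cells held it. In Snhg11-high cells the ratio was −0.34 (−1.47 to 0.85).

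CA3 neurons stood well above CA1 neurons in p21, with 36.4% and 37.4% of cells and 17.9 and 17.4 CPM. Dentate granule cells had it in 6.19% and 5.67%, and oligodendrocytes in 7.66% and 6.62% at a far lower depth (medians of 6485.5 and 6543.5 UMIs), or 4.27% and 3.15% when thinned, which left out 1354 of 3836 control and 1136 of 3114 tomatidine oligodendrocytes. Thinned dentate granule cells, with 172 and 129 left out, had it in 1.90% and 1.86%. At matched depth the CA1 share, 1.44% and 1.64%, was below those of dentate granule cells and oligodendrocytes. The gap to dentate granule cells was narrow in the tomatidine library. Thinned shares, here and for p16 below, carry no interval, and the differences between classes were not tested. How much of the CA1 share was background was not tested. Cdkn2a (p16) was counted in 7 control and 12 tomatidine cells (0.709% and 1.44%, difference 0.726, −0.240 to 1.84), against 1.54% and 0.931% of oligodendrocytes. Thinned to 5000 UMIs, the shares were 0.195% and 0.307% of CA1 cells and 0.988% and 0.497% of oligodendrocytes, so that CA1 was then below in both libraries. Of 14 measured cell cycle inhibitors and p53 targets, 9 were lower and none was past the fold, with a median of −0.03, Phlda3 at the upper end (0.48) and Ccnd1 (cyclin D1) at the lower (−0.38).

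The lists of stress and maintenance pathways had medians near that of all genes. ATF4 targets, which cells induce when amino acids run short, were higher in 14 of 18 cases with a median of 0.13 (−0.03 to 0.32). Slc7a11, the cystine transporter (0.62), and Phgdh, the first enzyme of serine synthesis (0.55), were past the fold, 2 of 18 members beside 5.29% of all genes, while Asns, asparagine synthetase, was level at 173 and 174 CPM (0.01). Of 26 mitophagy and autophagy genes none was past the fold and the median was 0.02. Optn, a mitophagy receptor, was at 9.78 and 13.7 CPM (0.49), whereas the receptor Sqstm1 was at 216 and 182 CPM (−0.24).

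Nrf2 antioxidant genes had a median of −0.04 over 17 genes, with Txn1 (thioredoxin) at −0.39 and the factor itself, Nfe2l2, at 0.45. Cholesterol genes were higher in 18 of 23 cases with a median of 0.13 (−0.0071 to 0.23), or 0.020 with equal weight per cell, and none past the fold. Mitochondrially encoded genes had a median of 0.08 over 13 genes, of which 11 were higher, but −0.24 in Snhg11-high cells, where 0 of the 13 were. Their nuclear-encoded partners in the respiratory chain had a median of −0.04 over 43 genes. Heat shock genes (−0.06), glucocorticoid receptor targets (−0.01) and clock genes (0.07) lay as close to 0, and interferon and MHC class I genes were at 0.18 (−0.16 to 0.43). Of the 16 measured, 1 was past the fold (Ifit3, 0.71), a share near the 5.29% over all genes.

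Of 19 genes of amyloid, tau and synuclein, 1 was higher past the fold and 1 lower, beside 5.29% and 1.05% of all genes. Apoe, a lipid carrier that astrocytes make in large amounts, was at 292 and 450 CPM (0.62), and Sncg, gamma-synuclein, was at −0.53 from 587 and 291 UMIs. In supported cells Apoe was at 0.34, and Sncg had 13 and 34 UMIs, under the minimum of 100. App, the amyloid precursor protein, was at 3291 and 3219 CPM, a ratio of −0.03, and the median of the list was −0.01.

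**Figure D5:**
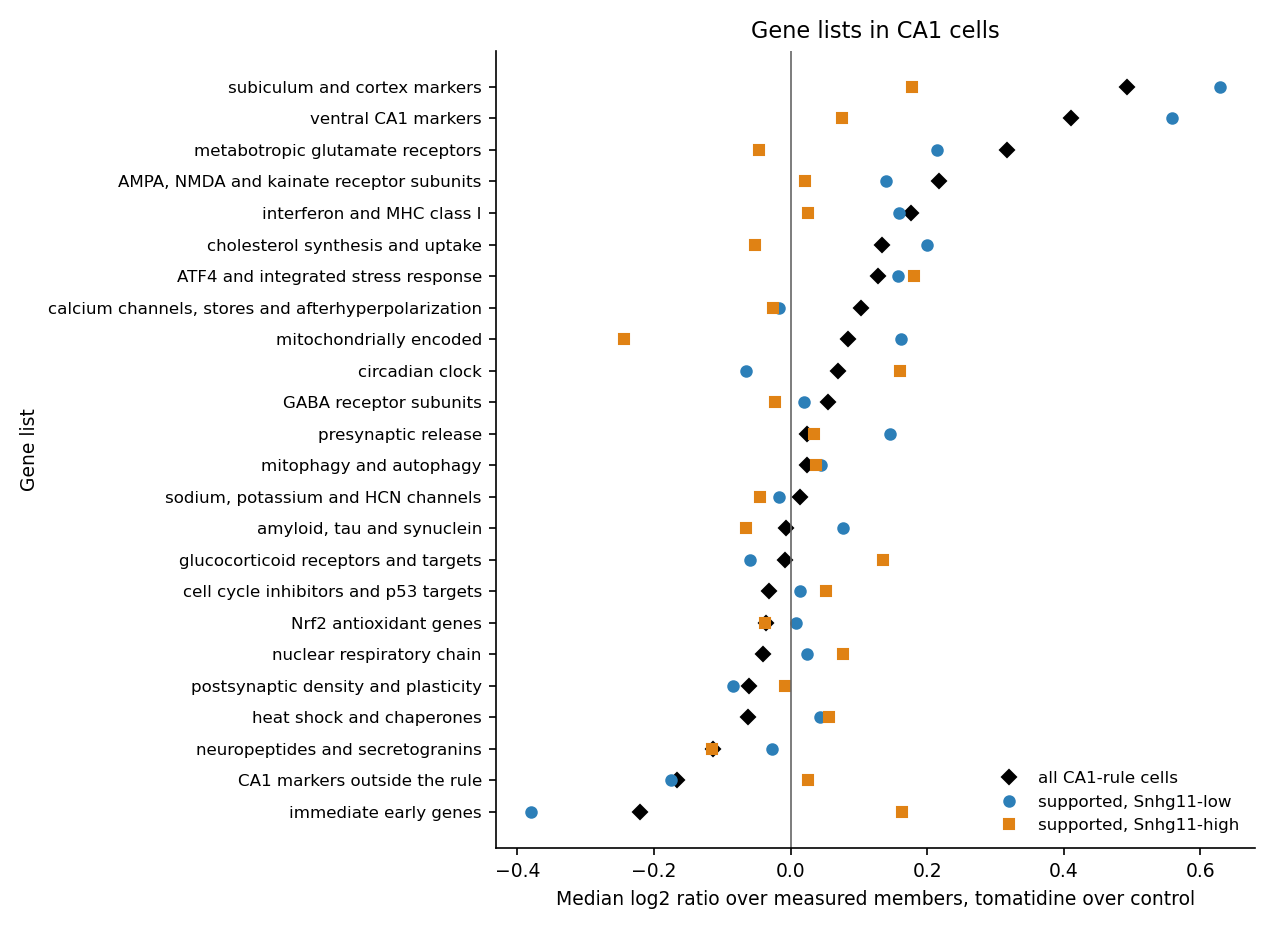
Median log2 ratio of tomatidine over control (horizontal axis) of gene lists (vertical axis) in all CA1-rule cells (black diamonds), Snhg11-low supported cells (blue circles) and Snhg11-high supported cells (orange squares). The plot leaves out the rule's markers and the lists of CA2, CA3, dentate and non-pyramidal cells, some of which lie farther from 0. Among the lists plotted, subiculum and cortex markers lie highest at 0.49 and immediate early genes lowest at −0.22 in all rule cells.

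RNA of other cell types was present in the rule cells of both libraries, and none of the measured markers was at 0. The 8 astrocyte markers summed to 622 CPM in the control and 907 CPM in the tomatidine library, with Slc1a2, a glutamate transporter, the most abundant at 306 and 399 CPM. Of these markers 5 were past the fold upward, as were 6 of 8 interneuron, 5 of 7 microglial and 4 of 5 endothelial markers, beside 5.29% of all genes. Microglial markers summed to 126 and 185 CPM, interneuron markers to 103 and 179 CPM (Sst the most abundant), endothelial markers to 36.2 and 47.9 CPM (Itm2a), oligodendrocyte markers to 748 and 731 CPM and choroid plexus markers to 441 and 165 CPM (Ttr). Supported cells had been chosen with members of these lists except the choroid plexus list, which summed to 521 and 181 CPM there. The lower sums of the other lists follow in part from that choice. They were 463 and 624 CPM for astrocytes, 81.1 and 66.5 CPM for microglia and 79.4 and 101 CPM for interneurons, and 445 and 504 CPM for oligodendrocytes and 30.2 and 22.6 CPM for endothelium. Whether such RNA had a part in the ratios of Apoe, Slc7a11, Phgdh and Gabrg1 was not tested.

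Transcripts of the Y chromosome summed to 166 and 169 CPM in rule cells. They were found in 57.9% and 58.6% of cells thinned to 5000 UMIs. In both libraries they were higher in Snhg11-high cells, at 338 and 276 CPM, than in Snhg11-low cells, at 147 and 147 CPM. Because the level differed between ranges of the same library, these sums do not show whether the pools held males and females in like proportion.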

How the data were processed

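Hippocampal cells were profiled with the 10x fixed RNA assay, on mouse genome mm10 according to the labels. The authors deposited filtered matrices of UMI counts per gene and cell, not normalized. The submitters' processing notes name Cell Ranger 8.0.0, whereas the matrix headers name 7.1.0. No doublets were removed here, and cells that carried another class are counted in the text.

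The rule cells, marker lists and gene lists were chosen with earlier results of these data known, and the Snhg11 ranges and supported cells after the data had been seen. UMIs were summed per library and set of cells. Ratios of CPM carry exact conditional binomial 95% intervals, shares Clopper-Pearson intervals, and differences of shares Newcombe intervals. With 1 library per group no p-value was computed. A gene was counted past the fold at a log2 ratio of at least 0.5 either way, among genes with at least 100 UMIs. CA3 cells, dentate granule cells and oligodendrocytes (Mog and Mag) were picked by like rules. Cells were thinned to 5000 UMIs for shares, by the expected share with a UMI.

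The text names the rule's markers, p21 and p16, up to 3 members at each end of every list and those past the fold, the most abundant marker of each other cell type, the 10 genes at each end among those with at least 500 UMIs, and the 10 highest over CA3 and dentate cells. A few genes that this rule or the marker lists hold are not reported here. Alternatives were other UMI minimums, TMM factors, equal weight per cell, part of the study's cell filters (over 250 and at most 6000 genes, under 10% mitochondrial UMIs, no doublet removal) and other sets of cells. The scripts were tested on simulated counts. Python 3.11.15, numpy 2.4.6, scipy 1.17.1, pandas 2.3.3, R 4.3.3 and edgeR 4.0.16 (TMM factors only) were used. The RefSeq promoter table is of GRCm38.p6, the build of mm10.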

Additional observations from a re-analysis of the deposited data

Results flagged for a closer look

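For 4 genes named above, the ratio of the tomatidine over the control library had the opposite sign in another class of hippocampal neuron, past the fold in both. Each is 1 library against 1, and the difference between classes was not tested. Plcb4, a phospholipase C, had a log2 ratio of 1.22 in CA1-rule cells and −0.70 in CA3 neurons. Of the Plcb4 UMIs in rule cells, supported cells held 31.1% in the control and 27.4% in the tomatidine library. Cells past the Tac2-Gng8 list held 26.0% and 4.32%. Dcn had 1.03 in CA1-rule cells and −0.51 in CA3 neurons. In rule cells, 11 control and 13 tomatidine cells held at least as many Dcn UMIs as all the rest. Npy, neuropeptide Y, had 0.94 in CA1-rule cells, −0.92 in CA3 neurons and −0.75 in dentate granule cells. In supported CA1 cells the Npy ratio was under the fold, as given above. Tac1, which encodes substance P, had −1.23 in CA1-rule cells and 1.53 in dentate granule cells, but −0.04 in supported CA1 cells, from fewer than 100 UMIs.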

How the results depend on the processing

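With 1 library per diet, leaving out a replicate was not possible, and every ratio rests on a single pool. No paired analysis was possible because the 2 groups shared no animal and held 1 library each. For the sparse genes p21 and p16, the intervals of the differences in share over all rule cells included 0. With at least 5000 UMIs per cell or a marker sum of at least 6 UMIs, the counts past the fold stayed within 1.5 times and the list medians within their intervals, and the share of rule cells remained lower, as over all deposited cells. Of Slc17a7 cells its difference was −0.798 percentage points (−1.94 to 0.350). The p21 difference was −1.36 at a marker sum of at least 6 UMIs, 0.194 with cells thinned to 5000 UMIs and 0.048 at 2000 UMIs, and that of p16 0.112 and 0.040 when thinned. For the values that follow, the cause was not tested.

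With at least 20 UMIs per gene 1216 genes were higher and 311 lower past the fold, and with at least 500 UMIs 225 and 49. TMM factors lowered the medians, giving −0.12 for postsynaptic density, −0.037 for presynaptic release, −0.047 for sodium, potassium and HCN channels, −0.18 for neuropeptides, −0.12 for heat shock, 0.022 for mitochondrially encoded genes, −0.10 for the nuclear respiratory chain and −0.068 for amyloid, tau and synuclein. With equal weight per cell 223 genes were lower, and the medians were −0.012 for postsynaptic density, −0.056 for presynaptic release, −0.11 for immediate early genes, −0.074 for neuropeptides, −0.035 for mitochondrially encoded genes (reversed), −0.13 for the nuclear respiratory chain and −0.083 for amyloid, tau and synuclein. Without the 2% of cells with the most UMIs the postsynaptic density median was −0.036. Without cells with 10 or more UMIs of another class, presynaptic release was at −0.017 and neuropeptides at −0.042.

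Under the filters taken from the study (in part, without doublet removal) the difference in share was 0.208 percentage points (−0.310 to 0.729, reversed). There 422 genes were higher and 194 lower. The medians were 0.070 for immediate early genes and −0.25 for mitochondrially encoded genes (both reversed), −0.0050 for postsynaptic density, −0.15 for presynaptic release, −0.22 for neuropeptides, 0.070 for p53 targets, −0.064 for cholesterol, 0.043 for glucocorticoid targets, 0.24 for the clock, −0.17 for the nuclear respiratory chain and −0.16 for amyloid, tau and synuclein.

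The sets that follow were chosen after seeing the data. In supported cells 57 genes were lower, neuropeptides were at −0.0091 and the nuclear respiratory chain at −0.11. The difference in share was −1.42 percentage points (−1.81 to −1.03) for Snhg11-low cells. In Snhg11-high cells the share was higher in the tomatidine library by 1.05 percentage points (reversed), and 129 genes were higher and 70 lower. Medians that reversed there were 0.16 for immediate early genes, −0.24 for mitochondrially encoded genes, −0.046 for metabotropic receptors and −0.026 for calcium genes. Others were 0.021 for AMPA, NMDA and kainate subunits, −0.022 for GABA receptors, −0.0084 for postsynaptic density, −0.045 for sodium, potassium and HCN channels, −0.052 for cholesterol, 0.056 for heat shock, 0.14 for glucocorticoid targets, 0.16 for the clock, 0.077 for the nuclear respiratory chain and −0.065 for amyloid, tau and synuclein, and the p16 difference was −0.587 percentage points. In Snhg11-low cells calcium genes were at −0.017 (reversed), and the medians were −0.38 for immediate early genes, 0.15 for presynaptic release, −0.028 for neuropeptides, 0.043 for heat shock, −0.065 for the clock, 0.16 for mitochondrially encoded genes, 0.023 for the nuclear respiratory chain and 0.077 for amyloid, tau and synuclein.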

Other observations

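General neuronal genes stood at like levels in the CA1-rule cells of both libraries, with 2 of 8 higher, 6 lower and none past the fold. The 8 genes of that list had a median log2 ratio of −0.031, with Camk2a, the calcium and calmodulin dependent kinase of excitatory synapses, at 1158 and 1200 CPM (0.052), Snap25 at 3098 and 3178 CPM (0.037), Tbr1, a transcription factor of cortical glutamatergic neurons, at −0.013, and Rbfox3, which encodes the neuronal nuclear antigen NeuN, at 405 and 362 CPM (−0.16). The 7 CA3 markers had a median of −0.041, of which Coch (91 and 43 UMIs) was past the fold at −0.60 (1.05% of all genes were lower past it). The 7 dentate granule markers had a median of −0.075, or −0.36 with equal weight per cell, and 6 of them were lower. Calb1, which encodes the calcium buffer calbindin of superficial CA1 and dentate granule cells, was at 139 and 132 CPM, and Stxbp6, a syntaxin-binding protein, at 16.8 and 24.0 CPM (0.52), past the fold upward as were 5.29% of all genes.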
